A study of Saccharomyces cerevisiae with 24 samples.

Results

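The 59 genes described here encode proteins that assemble the small (40S) subunit of the ribosome in Saccharomyces cerevisiae, most of them components of the small subunit (SSU) processome. They were taken by symbol from the array annotation, with the brightest probe set kept for each gene, and all 59 were measured among 5656 genes. Messenger RNA was followed on 24 arrays in 8 groups of 3 biological replicates after galactose was added to 2% to cells in log phase in YPLG medium at 30 °C. Both strains are MATa and carry IFH1 with a 13myc tag marked by TRP1. In YSS37 the tagged gene keeps its own promoter, and it was sampled at 0, 30 and 60 min. In YSS89 the UASGAL1 sequence with a HIS3 marker stands before it, and it was sampled at 0, 20, 30, 40 and 60 min. The labels give the times without a unit, and minutes are assumed. Every culture received galactose, so galactose and time in culture cannot be told apart within a strain.

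Assembly of the 40S subunit begins in the nucleolus on the nascent 35S precursor RNA, where UTP-A and UTP-B, the U3 small nucleolar ribonucleoprotein (snoRNP) and many single factors form the SSU processome. Cleavages in this particle release the precursor of 18S rRNA, and a smaller set of late factors carries the pre-40S particle into the cytoplasm. In yeast these genes belong to the ribosome biogenesis regulon, whose promoters often hold the RRPE and PAC elements, while Ifh1 is known as a coactivator that acts with Fhl1 and Rap1 at ribosomal protein genes. Ifh1 has also been isolated in the CURI complex, which joins it to casein kinase 2 and to the processome proteins Utp22 and Rrp7.

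The deposited intensity of IFH1 was 15.9 to 41.6 on the 9 YSS37 arrays, 21.7 to 34.6 on the 3 YSS89 arrays at time 0 and 557.4 to 1435.7 on the other YSS89 arrays. The instrument files record 4 hybridization times, and the arrays that share one are called a round here. Round 1 held 8 YSS37 arrays and no YSS89 array, so at time 0 strain and round cannot be told apart. The 9 YSS37 arrays shared a chip lot that was recorded for no YSS89 array. Strain and chip lot therefore cannot be told apart at any time. YSS89 replicates b and c at time 0 were alone in round 4, and a 25S rRNA control read 420.3 and 1493.2 on them against 2782.8 to 5181.1 on the other 22 arrays. The ACT1 3' to 5' signal ratio was 1.52 to 1.58 at 20 min in YSS89 and at most 1.49 on all other arrays. Each array is scaled to a common level, so values are shares of the labelled RNA, and fewer cells expressing a gene cannot be told apart from less RNA per cell.

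The level of the assembly genes on an array was taken as the mean log2 signal of the 59 members minus the median of all genes. It was -0.34 ± 0.24 (SD, n = 3) in YSS37 before galactose and reached 0.75 ± 0.13 by 30 min and 0.97 ± 0.03 by 60 min. In YSS89 it was 0.73 ± 0.16 before galactose and 0.96 ± 0.10 after 20 min. It was 1.43 ± 0.03 by 30 min and 1.53 ± 0.03 by 40 min, and stood at 1.40 ± 0.02 when sampled last. YSS37 before galactose was the lowest of the 8 groups, and their replicate c at time 0, at -0.07, stood above the other 2. YSS89 before galactose lay where YSS37 lay after 30 min: its mean was higher than that of YSS37 at 30 min for 31 of the 59 members and higher than that of YSS37 at 60 min for 9.

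**Figure D1:**
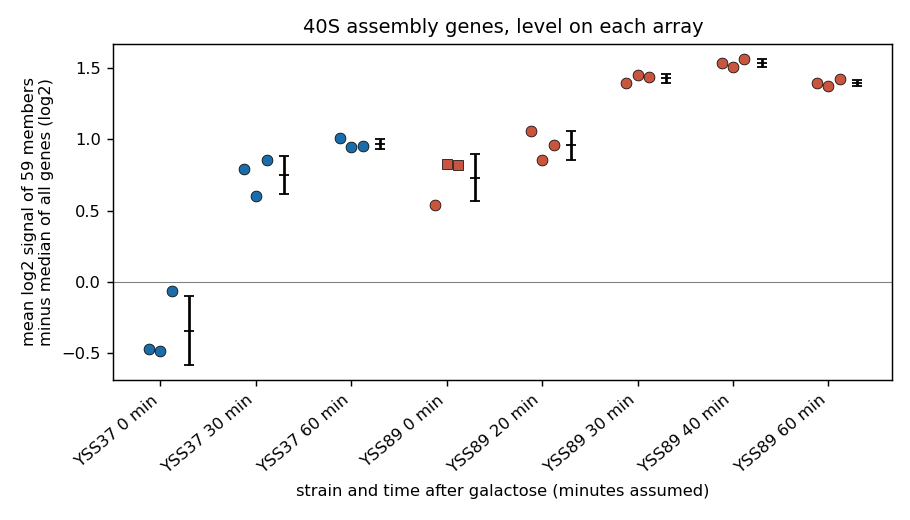
Mean log2 signal of the 59 assembly genes minus the median of all genes (vertical axis, log2 units) on each of the 24 arrays, by strain and time; the bars are the group mean and SD of 3 arrays, and squares mark YSS89 time 0 replicates b and c, which were alone in round 4. YSS37 starts at -0.34 and reaches 0.97, whereas YSS89 starts at 0.73 and is highest, 1.53, at 40 min.

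The first question the design allows is whether the strains already differed before galactose. At time 0, 54 of the 59 members were higher in YSS89 at an adjusted p under 0.05 and 0 were lower, against 17.8% and 10.2% of all genes. The median difference of the members was 1.12 on the log2 scale, that of all genes 0.04, and the arrays of the strains did not overlap for 55 members against 21.8% of all genes. The split of all genes turned with the scaling: with each array centred on its median 11.6% were higher and 23.7% lower (median -0.16), and as deposited 30.6% and 7.16% (median 0.21), while 53 and 58 members were higher and 0 lower. With all arrays, NSR1, the yeast nucleolin, showed the largest difference. Its deposited intensity was 104.7, 119.4 and 156.4 in YSS37 and 342.5, 564.1 and 643.4 in YSS89, a change of 2.01 (SE 0.21, adjusted p = 2.92e-06). The groups did not overlap, and the lowest of the YSS89 arrays was replicate a. With replicate a as the only YSS89 time 0 array the difference of NSR1 was 1.37, below UTP15 (1.49), NOP58 (1.45) and ENP1 (1.41). LCP5, a processome protein, followed at 1.78, UTP23, a PIN-domain protein of the early particle, at 1.78, and DBP8, a DEAD-box helicase, at 1.76.

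The members not called at time 0 were UTP22 at -0.09 (adjusted p = 0.77), KRE33, the acetyltransferase of 18S rRNA, at 0.47, RRP7 at 0.47, UTP4 at 0.55 (adjusted p = 0.051) and NOB1, the endonuclease that forms the 3' end of 18S rRNA, at 0.63. Of these, UTP22, KRE33 and NOB1 had overlapping groups after normalization. Both settings that follow rest on replicate a of YSS89 at time 0. The round block also joins the strains only through YSS37 60 min replicate c, so its lower count cannot be read as an effect of the round. Without YSS89 replicates b and c the median difference was 0.91 and 37 members were called, against 5.83% of all genes. With the round as a block it was 0.88 and 2 members were called, UTP25 and NSR1, against 0.442% of all genes.

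In YSS37, where IFH1 keeps its own promoter, nearly the whole set rose after galactose. At 30 min 58 of 59 members rose and 0 fell, against 14.4% and 12.4% of all genes, with a median of 1.09. At 60 min 58 rose and 0 fell, against 21.1% and 20.5% of all genes, with a median of 1.28. Of those that rose 49 reached at least 2-fold, with no share of all genes counted at that threshold. Both comparisons use the same time 0 arrays. The median of all genes was -0.01 at 30 min and 0.01 at 60 min. At 60 min the time 0 and 60 min arrays did not overlap for 56 members, against 23.8% of all genes. The exception to the rise was RRP7, a UTP-C subunit, at 0.16 and 0.31 (adjusted p = 0.59 and 0.21).

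In YSS37 at 30 min the largest rises were those of LCP5 (1.76), ENP1, a factor that stays with the pre-40S particle on export (1.73), DHR2, a DEAH-box helicase (1.69), and DBP8 (1.61). The smallest values were SOF1 at 0.64, FCF1, a PIN-domain nuclease, at 0.53, UTP22 at 0.52 and RRP7. At 60 min UTP23 and NSR1 rose by 1.97, LCP5 by 1.96 and DBP8 by 1.93. UTP23 had deposited intensities of 34.2, 34.1 and 57.8 before galactose, 144.3, 107.2 and 145.7 at 30 min and 192.9, 161.3 and 190.9 at 60 min. Its 3 groups did not overlap, and each later time was above the one before. At the low end at 60 min were NOC4 (0.79), FCF1 (0.76) and UTP22 (0.53, adjusted p = 0.032).

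From 30 to 60 min in YSS37 limma called 0 members in either direction, against 0.636% of all genes higher and 2.26% lower. At an unadjusted p under 0.05, 11 members were higher and 0 lower. The share of all genes at that threshold was not counted, so no rise is read from this. Of the 59 values 52 were above zero, with a median of 0.24. FAF1, a small processome factor, was highest at 0.66 (adjusted p = 0.12), with NSR1 at 0.44, UTP23 at 0.42 and UTP20, a large scaffold protein, at 0.42. NOB1 was lowest at -0.18, with RCL1, the partner of the GTPase Bms1, at -0.15, the kinase RIO2 at -0.09 and UTP25 at -0.07. The 60 min mean was the highest of the 3 times for 52 members, and time 0 was the lowest for all 59.

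**Figure D2:**
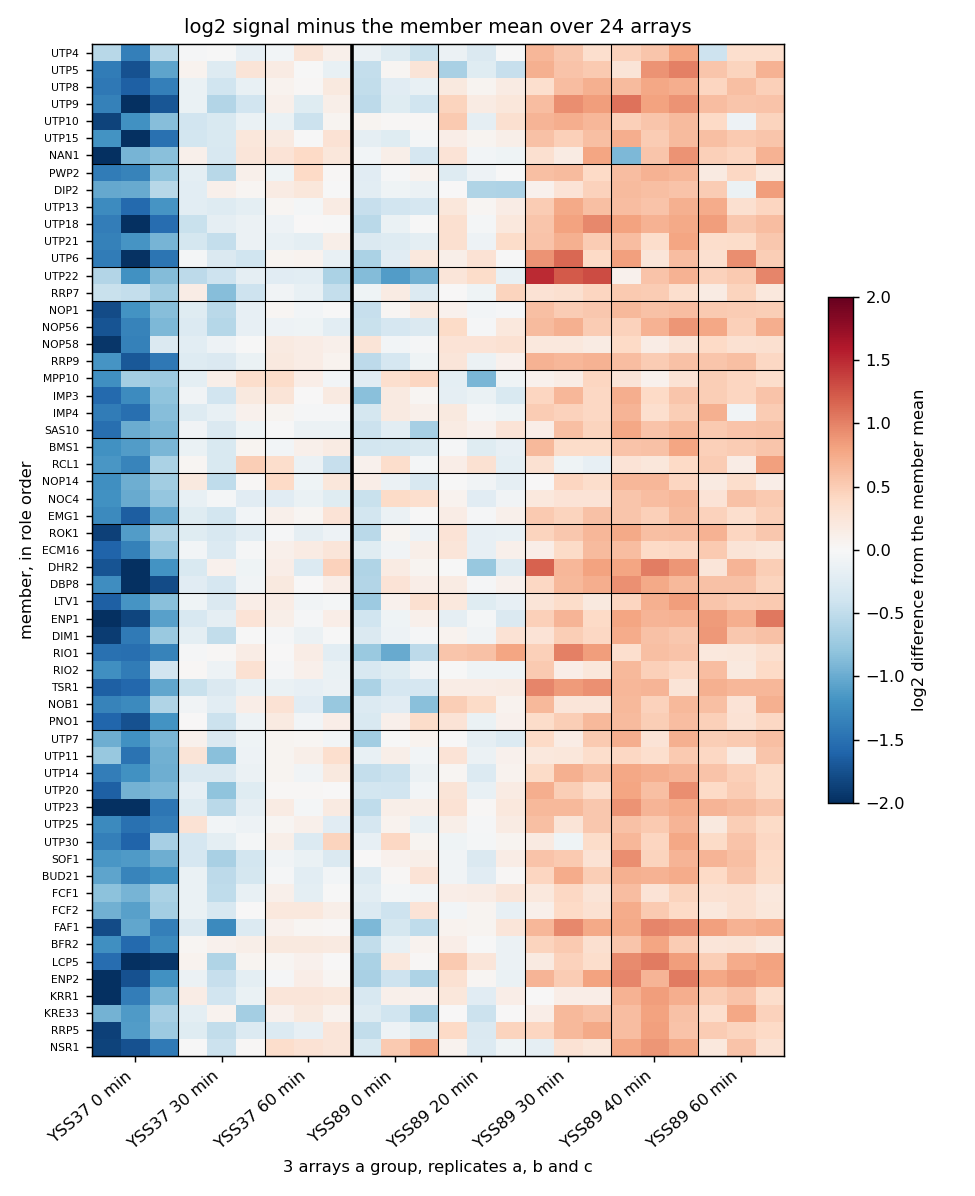
Log2 signal of each of the 59 members (rows, in order of role, separated by lines) minus its own mean over the 24 arrays (columns, 3 replicates a group); blue is below and red above the member's mean, with the colour bar in log2 units. The YSS37 time 0 columns are blue in nearly every row, and UTP22 has its deepest red at 30 min in YSS89.

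YSS89 was the only strain sampled at 20 min, when IFH1 RNA was already high. At that time 13 members rose and 0 fell, against 7.6% and 10.4% of all genes, and the median of the 59 was 0.18 against -0.01 for all genes. At an unadjusted p under 0.05, 15 were higher and 2 lower, with no share of all genes counted at that threshold. With each array centred on its median 10.6% of all genes rose and 7.43% fell. RIO1, a kinase of late pre-40S maturation, and UTP22 moved farthest. The deposited intensity of RIO1 was 63.3, 53.1 and 76.8 at time 0 and 143.9, 147.0 and 169.4 at 20 min, a rise of 1.40 (SE 0.14, adjusted p = 9.5e-07). That of UTP22 was 101.5, 85.6 and 99.3 at time 0 and 199.8, 220.4 and 157.9 at 20 min, a rise of 1.14 (SE 0.19, adjusted p = 0.0004). Neither gene had an array at 20 min as low as any array at time 0. Both were called under each of 37 alternative settings, with a change of 1.25 to 1.52 for RIO1 and 0.62 to 1.29 for UTP22.

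The other 11 members called at 20 min, named here after their values were seen apart from NOB1 and FAF1, came from several sub-complexes. Among the late factors were NOB1 (0.76) and the GTPase-like TSR1 (0.58). FAF1 (0.71) and ENP2 (0.63) are processome factors without a sub-complex here, and SAS10 (0.61) is grouped with the Mpp10 complex. UTP9 (0.66) and UTP8 (0.43) are UTP-A subunits, and UTP13 (0.53) and UTP21 (0.44) belong to UTP-B. The U3 snoRNP core protein NOP56 (0.55) and the U3-specific protein RRP9 (0.39) complete the group. The lowest members at 20 min were MPP10, the scaffold of its complex, at -0.58 (adjusted p = 0.062), NSR1 at -0.44, UTP5 at -0.39 and DIP2, a UTP-B subunit, at -0.25, none of which passed the test.

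The count at 20 min depended on single arrays. It was 7 without YSS89 time 0 replicate a or c, 5 without 20 min replicate a, 8 without 20 min replicate c, and 6 without both time 0 replicates b and c, against 2.65% of all genes. With the round as a block it was 4 (RIO1, UTP22, TSR1 and UTP8), against 2.19%, and within round 2 alone it was 2 (RIO1 and UTP22), against 1.52%. Falls were called under some settings: MPP10, NOC4 and NSR1 without YSS89 time 0 replicate a, MPP10 without 20 min replicate c, without YSS37 time 0 replicate a, as deposited or with the dimmest genes left out, and NSR1 with array weights. The median of the 59 was 0.39 without replicates b and c, 0.40 with the round as a block and 0.38 within round 2. All of these settings rest on replicate a at time 0 and are not independent.

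Later in YSS89 most of the set was above its time 0 level. At 30 min 45 members rose and 0 fell, against 22.4% and 23.6% of all genes, with a median of 0.65. At 40 min 53 rose and 0 fell, against 23.9% and 21.5%, with a median of 0.78. At 60 min 42 rose and 0 fell, against 23.9% and 19.8%, with a median of 0.63. The median of all genes was 0.01 at 30 min and 0.08 at 60 min. All of these comparisons share the 3 time 0 arrays, and at an unadjusted p under 0.05 no member was lower at 30, 40 or 60 min. The arrays did not overlap with time 0 for 48, 54 and 46 members at 30, 40 and 60 min, against 26.7%, 29.7% and 29.2% of all genes. Within round 2 alone, which held only replicate a of YSS89 at time 0, 30 and 60 min, the medians were 0.86 at 30 min and 0.86 at 60 min. The count at 60 min was 27 without time 0 replicate a, and at 30 min NSR1 was called lower without that array.

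UTP22 led at 30 min in YSS89 with a rise of 2.32, followed by RIO1 (1.53), FAF1 (1.38) and TSR1 (1.35). At 40 min FAF1 (1.48), ENP2 (1.46), UTP22 (1.43) and UTP9 (1.31) were highest. At 60 min the order was UTP22 (1.63), ENP2 (1.36), FAF1 (1.34) and TSR1 (1.11). TSR1 had deposited intensities of 152.7, 181.7 and 191.0 at time 0, 404.0, 367.8 and 384.8 at 30 min and 350.6, 348.6 and 336.5 at 60 min. Its YSS89 arrays at 30 min lay above those at any other time, and those at time 0 lay below all others. FAF1, which was dim, had 14.9, 24.0 and 22.3 at time 0 and 44.9, 55.8 and 47.2 at 30 min, so the pseudocount understates its change more than that of a bright gene.

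The lowest values in YSS89 were mostly those of NSR1, MPP10, RCL1 and NOP58. At 30 min NSR1 was at -0.23, RCL1 at -0.12, UTP30 at 0.04 and MPP10 at 0.04. At 40 min the 6 members not called were MPP10 (0.04), RCL1 (0.16), NOP58 (0.21), NAN1 (0.28), UTP11 and NSR1. At 60 min NSR1 was at 0.03, UTP10 at 0.21, MPP10 at 0.25 and NOP58 at 0.28, and 17 members were not called.

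Between neighbouring times in YSS89, the step from 20 to 30 min held the most calls. There 25 members rose and 0 fell, against 9% and 12.4% of all genes, with a median of 0.44 against 0.18 for the step from 0 to 20 min, and 42 had non-overlapping, higher arrays against 21.4% of all genes. DHR2 rose by 1.22, UTP22 by 1.18, UTP5 by 1.05 and TSR1 by 0.76. The lowest were NOP58 (-0.09), RCL1 (-0.06), KRR1, a KH-domain protein (0.04), and NOB1 (0.06). The sign for NOP58 was the opposite without quantile normalization: as deposited its change was 0.30 (adjusted p = 0.33). By median the 2 steps were close when replicates b and c were left out (0.39 from 0 to 20 min and 0.44 from 20 to 30 min), with the round as a block (0.40 and 0.46) and within round 2 (0.38 and 0.42). Each of these settings rests on replicate a at time 0, so they are not independent of one another. The count was 10 without 20 min replicate b and 15 without 30 min replicate b or c. Within round 2 it was 5 and within round 3 it was 2, against 0.707% and 1.15% of all genes, with medians of 0.42 and 0.49.

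From 30 to 40 min 0 members rose, against 3.59% of all genes, and 1 fell, against 1.75%. That member was UTP22, which fell by 0.89 (adjusted p = 0.0084). Rises were called under some settings: KRR1, LCP5, NSR1 and UTP30 with array weights, KRR1, LCP5 and NSR1 with only the groups of the contrast, KRR1 and NSR1 with the higher pseudocount or without the dimmest genes, and NSR1 as deposited or centred on the median. Without 40 min replicate a the change of UTP22 was -0.71 and was not called, and within round 2 and round 3 no member was called. TSR1 at -0.38, RIO1 at -0.27 and UTP6 at -0.26 were next lowest, and NSR1 at 0.70 (adjusted p = 0.058), KRR1 at 0.67, LCP5 at 0.61 and UTP30 at 0.47 were highest. From 40 to 60 min limma called 0 members, against 0.796% of all genes higher and 1.29% lower. At an unadjusted p under 0.05 none was higher and 4 were lower, with no share of all genes counted. The median was -0.14, from UTP4 (-0.52), NSR1 (-0.44), DHR2 (-0.43) and PWP2 (-0.39) to NAN1 (0.35), MPP10 (0.21), UTP22 (0.20) and RCL1 (0.19). The group mean was highest at 40 min for 45 members, at 60 min for 6 and at 30 min for 8.

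By role, every group but UTP-C rose in full in YSS37 at 60 min, whereas in YSS89 at 60 min each of the 10 groups held at least 1 member that was not called. In YSS37 all 7 UTP-A subunits rose, with a median of 1.57, from UTP4 at 0.92 to UTP15 at 1.83. All 6 UTP-B subunits rose, from DIP2 at 0.99 to UTP18 at 1.80. The 4 U3 snoRNP proteins rose, from NOP56 at 1.19 to RRP9 at 1.57. The 4 helicases rose, from ROK1 at 1.09 to DBP8 at 1.93. In UTP-C the values were smaller, with UTP22 at 0.53 and RRP7 at 0.31.

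The Mpp10 complex rose as a whole in YSS37 at 60 min, from MPP10 at 1.02 to IMP3 at 1.35, as did BMS1, a GTPase, at 1.15 and RCL1 at 0.96. EMG1, a methyltransferase of 18S rRNA, rose by 1.47 and NOC4 by 0.79. All 8 late 40S factors rose, from NOB1 at 0.84 to ENP1 at 1.89. The 19 other processome factors rose too, from FCF1 at 0.76 to UTP23 at 1.97.

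In YSS89 at 60 min 4 of the 7 UTP-A subunits rose, from UTP10 at 0.21, not called, to UTP9 at 0.97. In UTP-B 5 of 6 rose, with PWP2 at 0.33, not called, and UTP18 at 0.89. Among the U3 snoRNP proteins NOP56 rose by 1.02, and NOP58 at 0.28 did not pass the test. In the Mpp10 complex SAS10 rose by 0.99, with MPP10 at 0.25, not called. The count of late factors called was 7 of 8, from PNO1 at 0.35, not called, to TSR1 at 1.11. BMS1 rose by 0.86, EMG1 by 0.59 and ROK1 by 0.75, whereas RCL1 at 0.36, NOP14 at 0.32 and ECM16, a DEAH-box helicase, at 0.41 were not called. No difference between sub-complexes was tested.

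**Figure D3:**
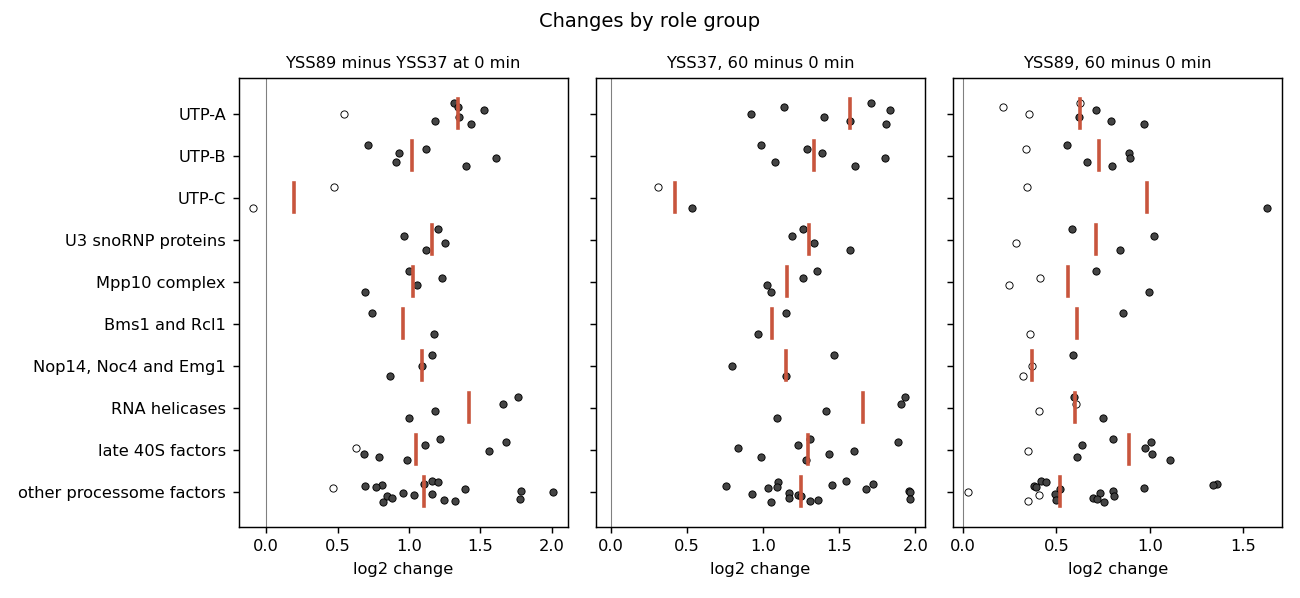
Log2 change of each member (points) by role group for the difference between the strains at 0 min and for 60 against 0 min in each strain; filled points were called at an adjusted p under 0.05, open points were not, red bars are group medians, and the horizontal scales differ between panels. UTP-C, here only UTP22 and RRP7, has the lowest median in the left and middle panels (0.19 and 0.42). In the right panel RRP7 lies at 0.34 and UTP22 at 1.63.

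After galactose the strains still differed. At 30 min 44 members were higher in YSS89 and 0 lower, against 23.4% and 20% of all genes, with a median difference of 0.68. At 60 min 27 were higher and 0 lower, against 16.5% and 11.4%, with a median of 0.42 against 0.10 for all genes. UTP22 was first at both times, by 1.71 and 1.01. At 30 min FAF1 (1.41), TSR1 (1.21) and UTP9 (1.16) followed, and RCL1 (-0.06), MPP10 (0.13), KRR1 (0.21) and RIO2 (0.22) were lowest. At 60 min TSR1 (0.82), ENP1 (0.80) and NOP56 (0.80) followed, and UTP4 (-0.02), NOP14 (0.04), BFR2 (0.04) and NSR1 (0.07) were lowest.

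Nearly all YSS37 arrays were in another hybridization round than the YSS89 arrays, and the counts were lower with the round in the fit. The round block joins the strains only through YSS37 60 min replicate c. The lower counts therefore cannot be read as an effect of the round. Chip lot differed between the strains within round 2 as well, and no setting separates it from strain. With the round as a block 9 members were called higher at 30 min and 5 at 60 min, against 4.28% and 3.77% of all genes, with medians of 0.59 and 0.43. Within round 2, which held 1 array of each strain at 60 min, the median difference was 0.46 and 2 members were called, UTP22 and SOF1, against 1.4% of all genes. At 60 min the count was 13 without YSS37 replicate b, 15 without YSS89 replicate a and 16 without YSS89 replicate c.

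The next comparison asks whether the change from time 0 differed between the strains, as the YSS89 change minus the YSS37 change. It equals the strain difference at the later time minus that at time 0. It therefore restates the gap at time 0 in part and is no separate result. At 30 min 1 member had a larger change in YSS89, against 6.72% of all genes, and 13 had a smaller one, against 11%, with a median of -0.40. At 60 min 1 was larger, against 5.45%, and 23 were smaller, against 8.42%, with a median of -0.68 against 0.03 for all genes. With each array centred on its median the shares of all genes turned, to 10.6% larger and 6.86% smaller at 30 min and 12% and 5.43% at 60 min, with 13 and 18 members smaller. The larger one was UTP22 at both times. All 13 and all 23 members with a smaller response were among the 54 called higher in YSS89 at time 0. Read without the test, the change at 60 min was larger in YSS37 for 56 members and larger in YSS89 for 3: UTP22, RRP7 and NOB1. No share of all genes was counted for this. The members' values all rest on the same time 0 arrays and are not separate observations.

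NSR1 had the most negative difference, at -1.76 at 30 min (adjusted p = 0.00043) and -1.94 at 60 min (adjusted p = 0.00025). At 30 min LCP5 (-1.30), RCL1 (-1.23) and KRR1 (-1.18) were next, and FAF1 (0.59), KRE33 (0.25) and RRP7 (0.25) followed UTP22 at the top without passing the test. At 60 min DBP8 (-1.34), DHR2 (-1.30) and UTP23 (-1.25) were next, and NOB1 (0.14), RRP7 (0.03) and SAS10 (-0.06) stood below UTP22. For the step from 30 to 60 min limma called 0 members, against 2.46% of all genes higher and 0.778% lower in YSS89. At an unadjusted p under 0.05 none was higher and 9 were lower, with no share of all genes counted. The median was -0.30, from FAF1 (-0.70), UTP22 (-0.69), DHR2 (-0.63) and UTP4 (-0.59) to RCL1 (0.63), NOB1 (0.33), NOC4 (0.28) and ENP1 (0.20).

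The counts of smaller responses depended on the YSS89 time 0 arrays b and c. Without them 1 member had a smaller response at 30 min (NSR1) and 2 at 60 min (NSR1 and BFR2), against 5.99% and 3.38% of all genes, with medians of -0.20 and -0.42, so the members' shares were near or below those of all genes. With the round as a block the medians were -0.23 and -0.53. Round 4 holds only b and c, so this setting too rests on replicate a at time 0 and is no separate check. At 30 min UTP22 was still called under both settings, at 1.68 and 1.65, but not at 60 min, where it was at 0.99 (adjusted p = 0.11) and 0.82 (adjusted p = 0.25). Single arrays moved the 30 min count of 13 to 7 (without YSS89 time 0 replicate b), 8 (without YSS89 time 0 replicate c, YSS37 time 0 replicate b or YSS37 30 min replicate c), 20 (without YSS89 time 0 replicate a) and 21 (without YSS37 time 0 replicate c). They moved the 60 min count of 23 to 13 (without YSS37 time 0 replicate b), 14 (without YSS89 time 0 replicate b, or YSS37 60 min replicate a or c) and 15 (without YSS89 time 0 replicate c or 60 min replicate c).

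**Figure D4:**
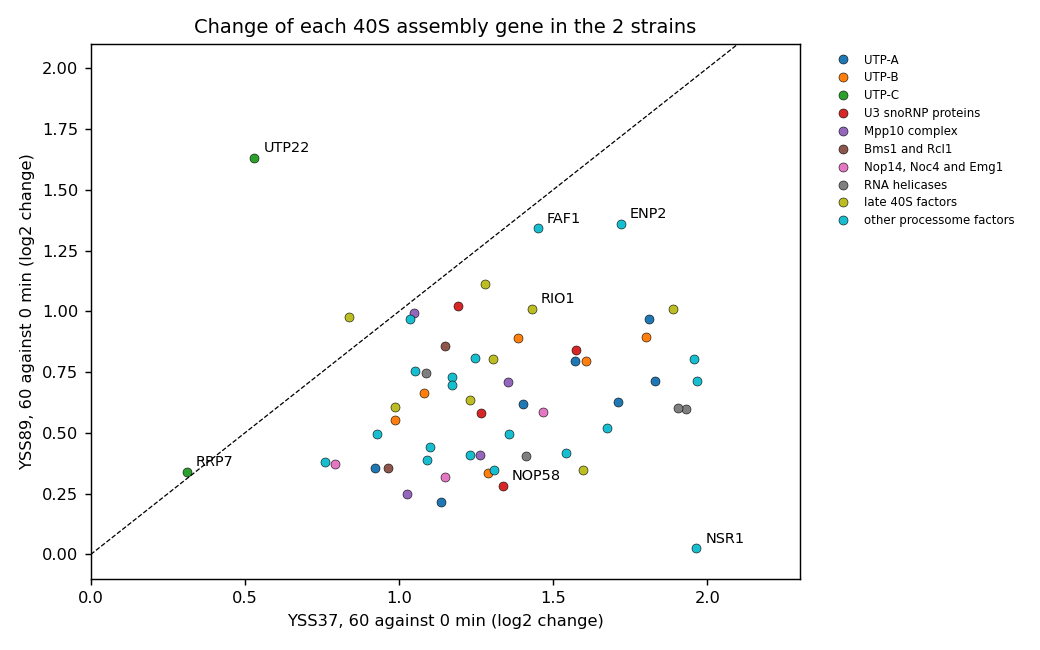
Log2 change from 0 to 60 min of each member in YSS37 (horizontal axis) and YSS89 (vertical axis), coloured by role; the dashed line marks equal change. Of the 59 points 56 lie below the line, NSR1 farthest (1.97 and 0.03), and UTP22 lies farthest above it (0.53 and 1.63). The points all share the same time 0 arrays, and the share of all genes below the line was not counted.

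UTP22 encodes a subunit of UTP-C that is also found in the CURI complex. In YSS37 its deposited intensity was 109.2, 67.8 and 95.2 at time 0, 121.9, 122.3 and 149.6 at 30 min and 147.1, 144.8 and 106.8 at 60 min. In YSS89 it was 101.5, 85.6 and 99.3 at time 0, 453.8, 377.0 and 398.6 at 30 min, 178.0, 245.4 and 271.4 at 40 min and 238.9, 247.4 and 329.9 at 60 min. At time 0 the strains overlapped, and every YSS89 array from 20 min on exceeded every YSS37 array. The 30 min arrays of YSS89 stood above all other arrays of the gene. The difference of responses was 1.79 (SE 0.27, adjusted p = 0.00017) at 30 min and 1.10 (SE 0.27, adjusted p = 0.011) at 60 min. At 30 min it was called under each of 36 alternative settings, at 1.18 to 1.96.

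UTP22 has 6 probe sets on the array. In YSS89 all 6 were above their time 0 value at 30 min, by 0.78 to 2.32, and all 6 lay lower at 40 than at 30 min. The difference of responses at 30 min was above zero for all 6, from 0.27 in the dimmest to 1.79 in the brightest. The probe sets did not all share a sign elsewhere. For the YSS37 change at 60 min 4 of 6 were above zero, from -0.31 to 0.84. For the YSS89 change at 20 min 5 of 6 were, from -0.35 to 1.14. RRP7, the other UTP-C member, had deposited intensities of 57.1, 56.1 and 49.4 in YSS37 and 88.0, 105.8 and 80.4 in YSS89 at time 0, without overlap. It then had 103.4, 106.9 and 109.7 at 30 min in YSS89, a change of 0.41 that did not pass the test.

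**Figure D5:**
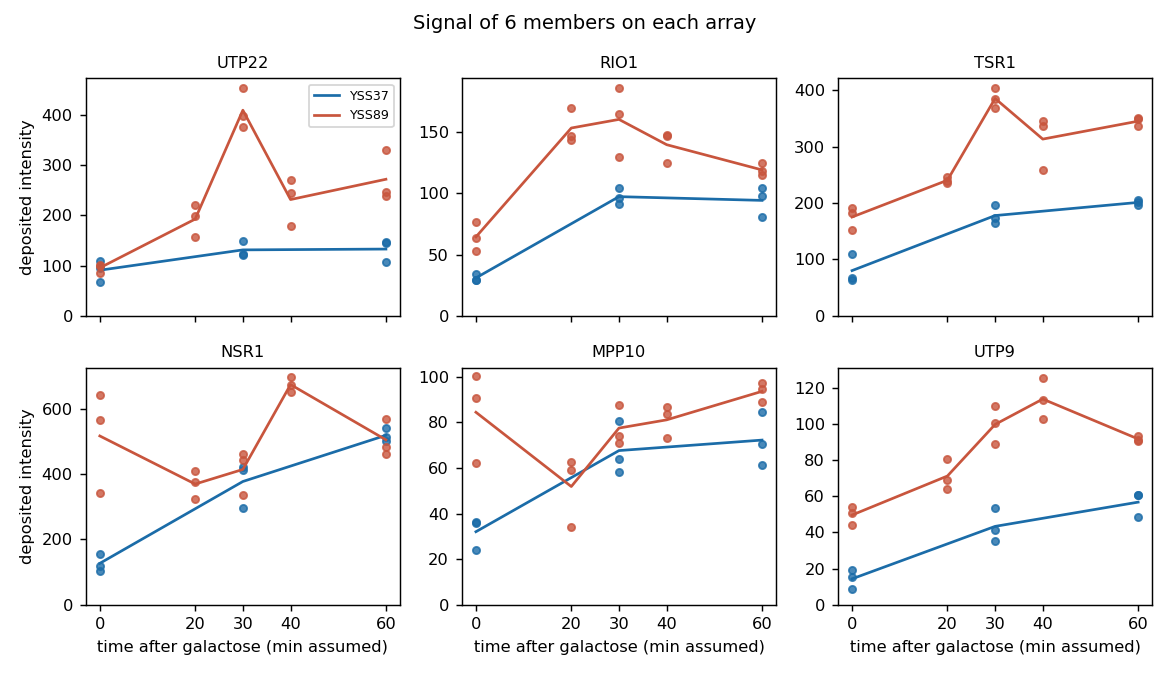
Deposited intensity (linear scale from 0) of UTP22, RIO1, TSR1, NSR1, MPP10 and UTP9 on each array against time after galactose, with lines joining the means of 3 arrays in YSS37 (blue) and YSS89 (red). UTP22 and TSR1 have their highest YSS89 mean at 30 min, UTP9 and NSR1 at 40 min, and MPP10 in YSS89 is lowest at 20 min.

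NSR1 showed the reverse of UTP22: it was high in YSS89 before galactose and ended level with YSS37. Its deposited intensity in YSS37 was 104.7, 119.4 and 156.4 at time 0, 411.1, 297.7 and 423.0 at 30 min and 539.9, 514.9 and 501.1 at 60 min. In YSS89 it was 342.5, 564.1 and 643.4 at time 0, 408.2, 324.9 and 375.2 at 20 min, 335.4, 462.8 and 444.4 at 30 min, 673.3, 696.5 and 651.7 at 40 min and 462.7, 569.3 and 482.3 at 60 min. The YSS89 time 0 arrays overlapped with each later time except 40 min. The highest of them were replicates b and c, and without both the change at 60 min was 0.66 (adjusted p = 0.03) in place of 0.03. The smaller response of NSR1 was called under all 36 alternative settings at 30 and at 60 min.

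MPP10 was also lowest at 20 min in YSS89, and its YSS89 mean was highest at 60 min. Its deposited intensity in YSS89 was 62.3, 90.7 and 100.2 at time 0, 58.9, 33.9 and 62.7 at 20 min and 97.4, 94.4 and 88.9 at 60 min, so the groups at 0 and 20 min overlapped through replicate a. With values as deposited, the change of MPP10 at 20 min was -0.71 (adjusted p = 0.02). After quantile normalization it was -0.58, and -0.18 when the 2 arrays of round 4 were left out.

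NOP58, a core protein of box C/D snoRNPs, was the brightest member, and its YSS89 change depended on the scaling. Its deposited intensity was 1651.1, 1435.7 and 1473.5 at time 0 and 2945.2, 2849.8 and 2833.7 at 30 min, without overlap. With values as deposited this was a rise of 0.92, and with each array centred on its median 1.08, but after quantile normalization the change was 0.14 (adjusted p above 0.05). At 60 min the change was 0.90 with values as deposited and 0.28 after quantile normalization. The other 3 NOP58 probe sets changed by 0.50 to 0.52 at 30 min after quantile normalization.

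Genes of the same pathway outside the 59 were counted for comparison, from lists written with earlier results known. Of 35 other 40S assembly genes measured, 28 rose and 0 fell in YSS37 at 60 min (median 1.17), and 28 rose and 0 fell in YSS89 at 60 min (median 0.65). Of all genes 21.1% rose and 20.5% fell in YSS37 at 60 min, and 23.9% and 19.8% in YSS89. RRP36 (1.78), which was dim at time 0 in YSS37 (8.5, 3.2 and 6.6), and EFG1 (1.73) were highest in YSS37, and HAS1 (1.14) and BUD22 (1.01) in YSS89. SQS1 and CKA1 (-0.14 and -0.31 in YSS37) and HRR25 (0.00 in YSS89) were among the lowest. Of 67 genes of 60S subunit assembly, 66 rose in YSS37 (median 1.47) and 57 in YSS89 (median 0.72). At time 0, 65 of them were higher in YSS89 (median 1.22), against 17.8% of all genes. DBP2 (2.78) and DBP7 (2.20) were highest in YSS37 and RLP7 (1.25) and IPI1 (1.23) in YSS89. The response at 60 min was smaller in YSS89 for 28 of the 67 and larger for 0, against 8.42% and 5.45% of all genes, with a median of -0.73. The counts of these lists were not repeated without YSS89 time 0 replicates b and c or with the round as a block. No difference between the lists and the 59 members was tested.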

How the data were processed

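The authors deposited 1 intensity per probe set for 9335 probe sets on each of 24 Affymetrix YG_S98 arrays, 1 colour, made from total RNA by in vitro transcription per the labels' protocols. The intensity is on a linear scale and each array had been brought to a common level. The summary algorithm is not given in the sources used here. The instrument files were used only to read chip lots and the recorded hybridization time, which was taken as the round.

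To each value 1.4, the 10th percentile over all values, was added as pseudocount before log2 was taken, and arrays were quantile normalized after 60 control probe sets were left out. The 6504 probe sets that name 1 gene were used, the brightest for each gene, which left 5656 genes. R 4.3.3 and limma 3.58.1 fitted 8 group means over all 24 arrays without a replicate block. The 16 contrasts were tested by limma with eBayes, Benjamini-Hochberg adjustment ran over all genes of a contrast, and the call was at an adjusted p of 0.05. "Rose" and "fell" mean called. Changes are on this log2 scale and understate those of dim genes. With 3 arrays a group, which limits the precision, the median standard error was 0.17 for a change and 0.24 for a difference of responses. The labels call the replicates biological and tell no more of their source. The fit was tested on simulated data.

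Genes were named by a rule on role and rank, with exceptions said where they occur. The members and the lists were chosen with earlier results of these data known. Whether replicate letters pair the arrays is not known. In YSS37 the median correlation of deviations from group means was 0.12 for same-letter arrays and -0.08 for other pairs. In YSS89 these medians were 0.012 and 0.005. Alternatives were other pseudocounts and scalings, the mean of a gene's probe sets, a filter on dim genes, only the groups of a contrast, array weights, hybridization round as a block or alone, time 0 replicates b and c left out, replicate blocks, and each array left out. With the round as a block, in round 2 and without b and c, YSS89 time 0 rests on replicate a alone. Only YSS37 60 min replicate c shared a round with YSS89 arrays. Every strain difference with the round as a block therefore rests on that array too. Within a round some groups hold a single array, and the spread then comes from the other arrays. Promoter and protein sequences were not analysed here.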

Additional observations from a re-analysis of the deposited data

Results flagged for a closer look

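The difference of responses between the strains, tested as the YSS89 change minus the YSS37 change by limma with Benjamini-Hochberg adjustment over all genes, passed for the single members counted and named here, which marks them for a closer look. The counts themselves were not tested. Each difference of responses equals a later strain difference minus that at time 0, so it is not separate from the gap at time 0. At 30 min 1 member had a larger response in YSS89, UTP22 at 1.79, and 13 had a smaller one, of which the farthest were NSR1 (-1.76), LCP5 (-1.30), RCL1 (-1.23) and KRR1 (-1.18). At 60 min 1 member had a larger response, UTP22 at 1.10, and 23 had a smaller one, of which the farthest were NSR1 (-1.94), DBP8 (-1.34), DHR2 (-1.30) and UTP23 (-1.25). In the 2 YSS89 time 0 replicates b and c, which were alone in round 4, the level of the members was 0.83 and 0.82 against 0.54 in replicate a, and their part in these differences was measured by leaving them out, as given above.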

How the results depend on the processing

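No called change of a member reversed in sign under any setting run. Counts of rises in YSS37 at 30 and 60 min and in YSS89 at 40 min stayed within 1.5 times the count reported. Of the 3 comparisons with no member called, array weights gave 1 lower member from 40 to 60 min and 1 for the difference in the step from 30 to 60 min. For YSS89 at 20 min (13 called) the counts were 7 as deposited, 8 with only the groups of the contrast, 4 with the round as a block, 6 without time 0 replicates b and c, and 2 in round 2. At 30 min (45) they were 29 as deposited and 26 in round 2. For 30 against 20 min (25) they were 5 in round 2 and 2 in round 3, the latter added after seeing the data. For the fall from 30 to 40 min (1) they were 2 with array weights and 0 in round 2 and in round 3. With the round as a block the strain differences fell to 2, 9 and 5 members at 0, 30 and 60 min (54, 44 and 27), and to 2 at 60 min in round 2. Smaller responses at 30 min (13) numbered 22 as deposited, 5 with only the groups of the contrast, 25 with array weights, 1 with the round as a block and 1 without replicates b and c. Those at 60 min (23) numbered 7, 2 and 2 with only the groups, the round as a block and without b and c. Leaving out each array in turn gave 5 to 13 members for YSS89 at 20 min, 30 to 46 at 30 min, 27 to 43 at 60 min, 10 to 31 for 30 against 20 min, 0 to 1 for the fall from 30 to 40 min, 13 to 29 for the strain difference at 60 min, 7 to 21 for smaller responses at 30 min and 13 to 30 at 60 min. With a replicate block by letter the counts were 57 and 58 for YSS37 at 30 and 60 min. They were 13, 45, 53 and 42 for YSS89 at 20, 30, 40 and 60 min. Smaller responses numbered 14 and 25, so no count moved by over 1.5 times. Whether same-letter arrays share more than a letter is not known. The share of higher genes among all called genes moved by over 10 points in several contrasts. In YSS37 at 30 and 60 min it went from 53.7% and 50.8% to 39.1% and 38.5% with median centring. In YSS89 at 20 min it went from 42.3% to 24.7% as deposited and to 58.8% with median centring. In YSS89 at 30 min it went from 48.8% to 34.4% as deposited. For the strain difference at time 0 it went from 63.6% to 81% as deposited and to 32.9% with median centring. For the responses at 30 and 60 min it went from 37.9% and 39.3% to 20.1% and 24.4% as deposited. With median centring the responses went the other way, to 60.6% and 68.9%. The median response difference of all genes at 30 and 60 min was -0.18 and -0.12 as deposited and 0.11 and 0.16 with median centring. Of the 54 members called for the strain difference at time 0, 2 were called under every setting.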

Other observations

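The RNA of U3, the guide RNA of the processome, has 1 measured gene, SNR17A, which was dim. Its deposited intensity was 7.1 to 17.5 in YSS37 and, in YSS89, 32.2, 3.6 and 4.7 at time 0, 64.4, 82.3 and 71.3 at 20 min and 50.8, 34.4 and 47.1 at 60 min. Replicate a at time 0 was above every YSS37 array, and all YSS89 arrays after galactose lay above it. The SNR17A change was 2.92 at 20 min (adjusted p = 9.03e-05) and 2.14 at 60 min, against a time 0 mean that the dim values of replicates b and c set. Without those 2 arrays it was 1.26 at 20 min (adjusted p = 0.023) and 0.47 at 60 min (adjusted p = 0.27).

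Casein kinase 2 subunits, partners of Utp22 and Rrp7 in UTP-C and CURI, were looked at after their values were seen, apart from CKA1. CKA1, a catalytic subunit, had a larger response in YSS89 by 0.84 at 30 min (adjusted p = 0.031) and 1.05 at 60 min (adjusted p = 0.011). CKB1, a regulatory subunit, differed by 0.55 at 30 min (adjusted p = 0.026) and by 0.39 at 60 min, not called. CKA2 (0.36 and 0.28) and CKB2 (-0.03 and -0.01) were not called. RRP36, the remaining UTP-C subunit, had a smaller response in YSS89 at 30 min, with a difference of -1.78 (adjusted p = 0.0042). It was dim in YSS37 at time 0, with deposited intensities of 8.5, 3.2 and 6.6, so the size of this difference is uncertain. Without YSS89 time 0 replicates b and c RRP36 was still called at 30 min (adjusted p = 0.018), whereas CKA1 (0.60 and 0.81 at 30 and 60 min) and CKB1 (0.56 at 30 min) were not.

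TOD6, DOT6 and STB3 encode factors that bind the PAC and RRPE elements of ribosome biogenesis promoters and act as repressors there. TOD6 rose by 1.87 in YSS37 at 60 min and by 0.97 in YSS89 at 60 min, and was higher in YSS89 by 1.65 at time 0. DOT6 rose by 0.71 in YSS89 at 20 min, and its response at 30 min was larger in YSS89 by 1.22 (adjusted p = 3.15e-05). STB3 fell by 0.51 in YSS37 at 60 min, and in YSS89 it was at 0.30, not called, with a difference of responses of 0.82 (adjusted p = 0.015). Without replicates b and c the response of DOT6 at 30 min was still called, at 1.11, and that of STB3, at 0.62, was not. Of the regulators of ribosomal protein genes, FHL1 rose by 0.70 and RAP1 by 0.49 in YSS89 at 60 min, and SFP1 at 0.17 was not called. HMO1 rose by 0.58 in YSS89 at 20 min and was at -0.22 at 40 min and -0.24 at 60 min, not called. Without replicates b and c HMO1 was at 0.17 at 20 min, not called, and fell by 0.62 at 40 min and by 0.64 at 60 min, FHL1 was at 0.64, still called, and RAP1 was at 0.36, not called.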
